A study of Mus musculus with 8 samples.

Results

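The 33 genes described here make cholesterol, control its making, bring it into the cell, store it as ester or carry it out. They were taken by name from 19673 listed genes, and all 33 met the minimum of a mean value of 10 that left 16120 genes for the test. By role they were 8 enzymes of the mevalonate arm, 11 of the sterol arm, 3 genes of SREBP control and sterol transport, 3 of uptake and esterification, and 8 of the LXR and efflux programme. The RNA is that of live cells gated as CD45+CD3e+CD8+ from tumours of Py8119, a mammary cancer line from the MMTV-PyMT mouse model. The KO group had 4 libraries from tumours in Mtdh KO hosts, and the WT group had 4 from tumours in wild-type hosts. The genotype is that of the host, the Py8119 cells were injected into both kinds of host, and the labels used here give neither the strain and age of the mice nor the design of the Mtdh allele. The series title sets Mtdh of the host beside lipid metabolism. The comparison here asks whether genes of cholesterol handling differed between the cells gated in this way from the KO and WT hosts.

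Cells make cholesterol from acetyl-CoA. The mevalonate arm builds farnesyl pyrophosphate, which also feeds protein prenylation, and the sterol arm joins farnesyl units to squalene, closes the rings and trims them to cholesterol. When sterol in the endoplasmic reticulum is low, the transcription factor SREBP2 is released from its retention by INSIG proteins and switches on most of these enzymes together, whereas oxysterols activate the LXR receptors, which switch on efflux genes such as Abca1 and Abcg1. Dividing T cells need sterol for new membrane and raise synthesis on activation, and macrophages are known for strong LXR-driven efflux and for storage of cholesterol ester.

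Promoters were searched for motifs of the factors known to control these genes, and 3 are printed. Printed first is the member whose window matched the core of the sterol regulatory element. After it come an enzyme with more than 1 NF-Y box and the member with the smallest p. RefSeq windows of 300 bases on GRCm38.p6, from 250 before to 50 after the start, were matched for 27 of the 33 members. Shown are the 150 bases directly before the start, in the direction of the gene, with capitals for the core of the sterol regulatory element and for the NF-Y box on either strand. Hmgcs1 was the only matched member with the element's core, Idi1 had 2 NF-Y boxes in the stretch, and Acat2 had neither motif there.
Hmgcs1, chr13:119690201-119690350, plus strand: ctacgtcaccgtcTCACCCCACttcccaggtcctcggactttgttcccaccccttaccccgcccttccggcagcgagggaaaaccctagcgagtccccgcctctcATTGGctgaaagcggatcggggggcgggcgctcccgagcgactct
Idi1, chr13:8885456-8885605, plus strand: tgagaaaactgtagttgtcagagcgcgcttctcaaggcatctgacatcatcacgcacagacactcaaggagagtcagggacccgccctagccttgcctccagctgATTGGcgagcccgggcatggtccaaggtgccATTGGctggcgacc
Acat2, chr17:12960726-12960875, minus strand: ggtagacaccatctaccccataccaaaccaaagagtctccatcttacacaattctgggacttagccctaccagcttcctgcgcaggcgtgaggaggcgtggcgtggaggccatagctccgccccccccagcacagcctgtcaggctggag
The core was searched as TCACNCCAC, the NF-Y box as CCAAT and the Sp1 box as GGGCGG, each on both strands, and none of these motifs contains another. In Hmgcs1 the core was centred 133 bases before the start. The core was in 3.7% of the matched members, against 1.44% of the 27025 genes with a window. The NF-Y box was in 23 of 27 members (85.2%), against 41.1% of all genes with a window and 43.2% of the 10012 tested coding genes that were matched. All 9 matched sterol arm enzymes and 6 of 7 mevalonate arm enzymes held it, and Acat2 was the exception, while 4 of 7 LXR and efflux genes did. The Sp1 box was also in 23 of 27 members, against 67.3% of tested coding genes. A direct repeat of AGGTCA with a gap of 4 bases and up to 2 mismatches, the form that LXR binds, was in 1 member window, that of Dhcr7, and in 3.47% of all genes. These are matches of letters in short windows and do not show binding. A missing match does not show that a gene lacks such an element. The core was matched without mismatches, and some members had no matched window.

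Mtdh, the gene that differed between the hosts (ENSMUSG00000022255, chromosome 15, 34082840 to 34145770 of mm39), was at 42.8% of the WT mean in the KO libraries, and every KO value lay below every WT value (log2 fold change -1.23 with an SE of 0.25, adjusted p = 0.04 by limma; exact two-sided permutation p = 0.0286, the smallest that 70 arrangements allow). This limma call ended in 5 of the 8 omissions of a library. Libraries held an estimated 16400000 to 29600000 reads over all genes, small RNAs included. The genes other than small RNAs rested on only an estimated 115000 to 643000 distinct cDNA fragments. One fragment stood for a value of 23.6 in WT library 3, which held the most fragments, and of 149 in KO library 2, which held the fewest, so a gene near such a value rests on a few molecules. Markers of CD8 T cells were present in every library, and 11 of 12 had a positive fold change (0 called, median 0.70). Their summed values were 20168 to 44367 in KO and 7922 to 25873 in WT. Cd8a had KO values of 7561 to 13355 and WT values of 1565 to 6545, without overlap. In the other markers of the list the groups overlapped, and Trac had a log2 fold change of 0.007. Markers of macrophages and monocytes were present too, at summed values of 117200 to 269200 in KO and 196430 to 303670 in WT. Each of these sums was above every CD8 T cell sum. Lyz2 alone had a mean of 151870, and such sums do not measure shares of cells. Of the 15 markers 13 were negative (0 called, median -0.45), and none was at 0 in all libraries. The other 8 marker lists also had 0 genes called, and red blood cell markers summed to at most 1.10 in KO and to 101 to 239.7 in WT. Those sums rest on few fragments, with 14.4 for Hbb-bs and 4.09 for Hbb-bt over all 8 libraries. Transcripts known from other cells thus stood beside those of T cells in all 8 libraries. In such bulk values, fewer cells of a type and less RNA per cell cannot be told apart.

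None of the 33 cholesterol genes passed the test between hosts. Across all 16120 genes limma called 38 (0.236%), and the lowest adjusted p of a member was 0.675. At an unadjusted p under 0.05 there was 1 member of 33, Acat2, against 6.7% of all tested genes. In 3 of 33 members the KO and WT values did not overlap (Acat2 higher, Mvd and Nr1h3 lower in KO), against 4.11% of all tested genes, and the counts of 1 and 3 members are too small to be set apart from these shares. Fold changes are KO over WT on the scale of log2(value + 1). Of the members 16 were positive and 17 negative, with a median of 0.00, beside a median of -0.12 over all tested genes, of which 43.4% were positive. Across the alternatives the median over all tested genes ran from -0.16 (scaling without small RNAs) to -0.03 (without KO library 2). The 95% interval of the fold change lay within 2-fold either way in 13 of 33 members, against 20.7% of all tested genes. For those 13, changes of 2-fold or more are outside the interval, and for the other 20 they are not.

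**Figure D1:**
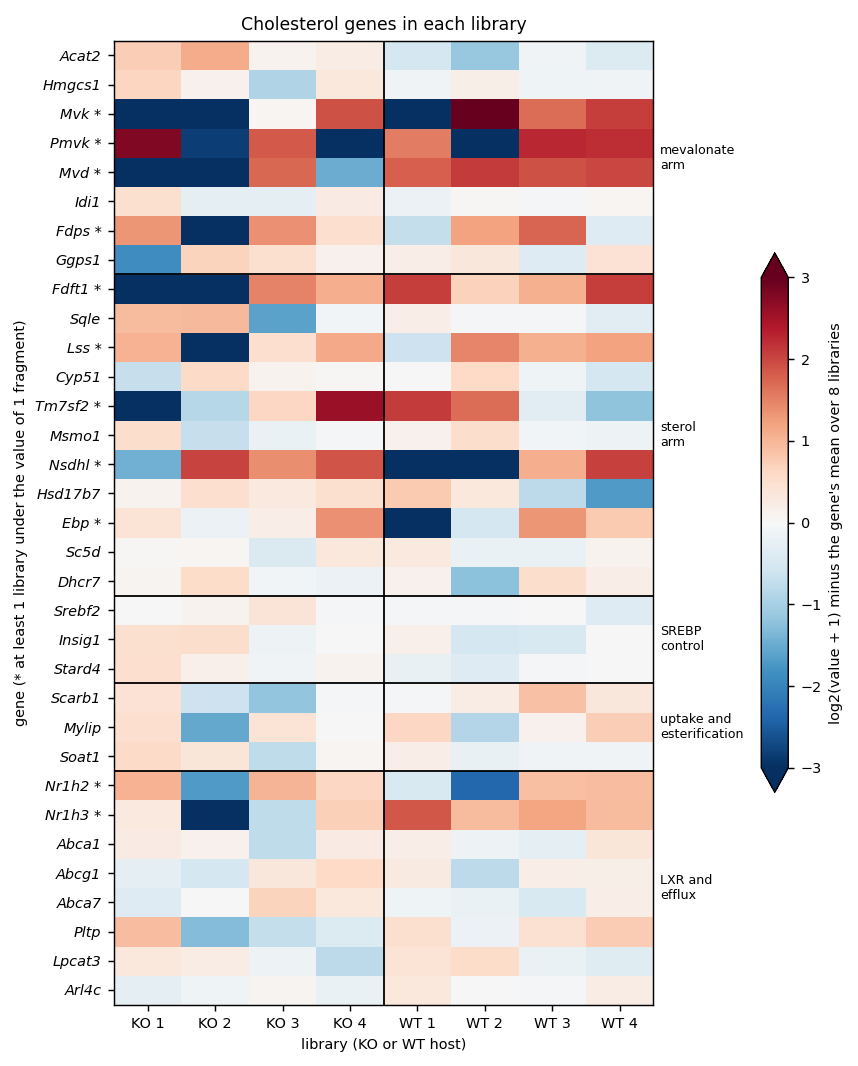
Each row is a cholesterol gene and each column a library; colour gives log2(value + 1) minus the gene's mean over the 8 libraries, with the scale ending at 3 in either direction, and a star marks the 11 genes under the value of 1 fragment in at least 1 library. The strong colours lie in the starred rows and in single libraries, and of the rows without a star only Acat2 has all 4 KO cells above all 4 WT cells.

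The genes fell into 2 sets by abundance. The 22 members with the highest means (381 to 17512) are called well measured here: they lay above the value of 1 fragment in every library and rested on 73.5 to 2989 fragments over the 8 libraries. The name holds for the 8 libraries together, and a single value can still rest on few fragments. In KO library 2, where 1 fragment stood for 149, Pltp was at 201 and Scarb1 at 230.1. The 11 others, with means of 36.1 to 217, were below 1 fragment in at least 1 library and rested on 6.37 to 44.4 fragments in all. These 11 are Mvk, Pmvk, Mvd and Fdps of the mevalonate arm, Fdft1, Lss, Tm7sf2, Nsdhl and Ebp of the sterol arm, and the LXR genes Nr1h2 and Nr1h3. Their SE ran from 0.91 to 2.24 on the log2 scale (median 1.76), against 0.19 to 0.50 (median 0.33) for the 22. Among the 22, fold changes ran from -0.76 to 1.09 with a median of 0.07, and 13 were positive. Per kilobase of exon, the most abundant member was Abca1 (1690), followed by Soat1 (1108), Arl4c (1001), Hmgcs1 (875) and Insig1 (674), and the least abundant were Mvk (13.5) and Tm7sf2 (11.3), as mean normalized values per kilobase. An efflux pump and an esterifying enzyme thus led in abundance, and several synthesis enzymes were near the floor of detection. Which cells in the libraries these transcripts came from was not tested.

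**Figure D2:**
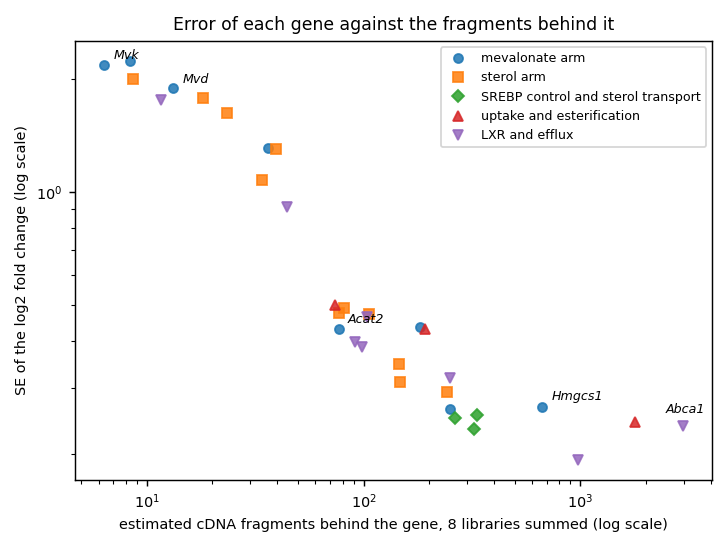
Each point is a cholesterol gene, placed by the estimated cDNA fragments behind it over 8 libraries (log axis) and by the SE of its log2 fold change (log axis), with the shape giving its role. The SE is between 0.19 and 0.50 for genes with at least 73.5 fragments and between 0.91 and 2.24 for genes with at most 44.4.

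The mevalonate arm held the member with the smallest p. Acat2 encodes the cytosolic thiolase that joins 2 acetyl-CoA units at the entry of the pathway (ENSMUSG00000023832, chromosome 17, 13161777 to 13179634 of mm39). Its values in KO libraries 1 to 4 were 734, 953, 474 and 519, and in WT libraries 1 to 4 they were 308, 199.65, 408 and 333. Every KO library was above every WT library, with KO library 2 the highest and WT library 2 the lowest. The KO mean was 670.1 ± 220.2 and the WT mean 312 ± 86.4 (SD over 4 libraries), a ratio of 2.15. The log2 fold change was 1.09 (SE 0.43, 95% interval 0.19 to 1.99, limma adjusted p = 0.675), so Acat2 did not pass over all genes. It rests on 76.7 fragments in all 8 libraries. Acat3, a near-identical gene beside it, was listed at 0 in all 4 KO libraries and at up to 86.4 in WT, in WT library 2, and reads of the pair may be split in counting. With the values of both genes added, an addition chosen after seeing the data, KO libraries ran from 474 to 953 and WT libraries from 286 to 408, and the difference was 0.92. The unadjusted p of Acat2 alone was no longer under 0.05 without KO library 2 or WT library 2 (log2 fold changes 0.90 and 0.89). The same held with sample weights (0.72).

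Hmgcs1, the synthase that makes HMG-CoA and a known SREBP2 target (ENSMUSG00000093930, chromosome 13, 120151915 to 120169796), did not separate the hosts. Its KO values were 6026, 4224, 2078 and 4779, and its WT values were 3578, 4353, 3514 and 3595. The KO libraries held both the highest and the lowest value, and 3 of the 4 WT libraries lay close together, with WT library 2 above them. The log2 fold change was 0.09 (SE 0.27, 95% interval -0.47 to 0.65). Leaving out KO library 1 gave -0.11, and leaving out KO library 3 gave 0.40. Idi1, the isomerase that makes the reactive isoprene partner, was at 1495 ± 404 in KO and 1383 ± 101 in WT (log2 fold change 0.08, SE 0.26). Ggps1, which makes geranylgeranyl pyrophosphate for prenylation, had a log2 fold change of -0.29 (SE 0.44), with KO library 1 at 260.2 and the other 3 KO libraries at 1051 to 1513.

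Mvd, the decarboxylase that makes isopentenyl pyrophosphate (ENSMUSG00000006517, chromosome 8, 123160340 to 123170161), had KO values of 1.81, 0, 88.3 and 8.68 and WT values of 93.0, 114, 100.3 and 107. All KO values were below all WT values, and 3 KO libraries were below their value of 1 fragment, which was 77.8, 149 and 38.1 in KO libraries 1, 2 and 4. The gene rests on 13.3 fragments in all 8 libraries. The log2 fold change was -3.90, with an SE of 1.89 (adjusted p = 0.75 by limma), and its size followed the pseudocount, with -4.23 at 0.5 and -2.39 at 10. Mvd lies within the span of Galnt2l on the opposite strand, with no shared exon bases, and Galnt2l had a log2 fold change of 0.19. The kinases Mvk and Pmvk, which phosphorylate mevalonate in turn, rested on 6.37 and 8.35 fragments and had log2 fold changes of -2.31 (SE 2.18) and -1.06 (SE 2.24). Fdps, the farnesyl pyrophosphate synthase, was at 2.20 in KO library 2 and at 63.2 to 353 in the other 7 libraries, with a log2 fold change of -0.91 (SE 1.31) that became 0.62 without that library. Of the 8 enzymes 3 were positive and 5 negative (median -0.60), and the 4 well-measured ones, Acat2, Hmgcs1, Idi1 and Ggps1, had a median of 0.08. The median of the arm ran from -1.01 without KO library 3 to -0.11 without KO library 2. Mvk, Pmvk, Mvd and Fdps, all with few fragments, were negative, and so was the well-measured Ggps1 at -0.29.

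**Figure D3:**
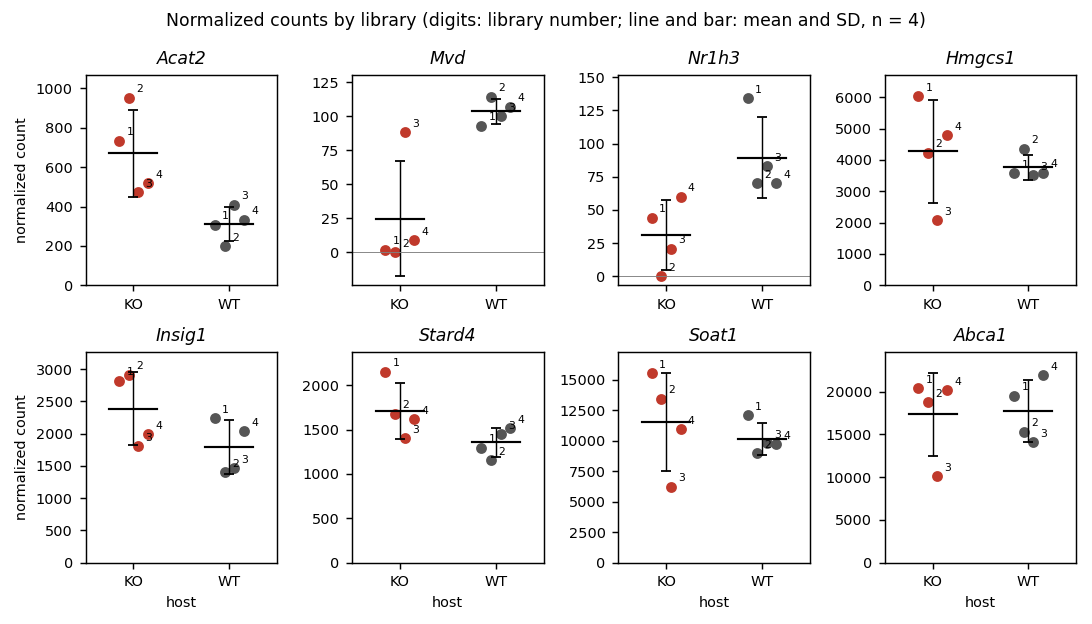
Each panel shows a gene, with normalized counts on a linear axis, 1 point per library numbered 1 to 4, and a bar for the mean and SD of the 4 KO or 4 WT libraries. Acat2, Mvd and Nr1h3 are the 3 members whose groups do not overlap, and in Hmgcs1, Soat1 and Abca1 KO library 3 is the lowest point of all 8.

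No sterol arm enzyme separated the hosts. Of the 11 enzymes 6 were positive and 5 negative (median 0.01), none had an unadjusted p under 0.05, and the 6 well-measured ones had a median of 0.06. Msmo1, the C4 methyl sterol oxidase and the most abundant of them, had KO values of 1990, 842, 1200.1 and 1317.5, and WT values of 1497, 1975, 1293 and 1227. The groups overlapped widely, with the highest value in KO library 1 and the lowest in KO library 2 (log2 fold change -0.21, SE 0.29). Cyp51, the lanosterol demethylase, had a KO mean of 887 ± 298 and a WT mean of 877 ± 294, and Sc5d, the sterol C5 desaturase, means of 855 ± 178 and 852 ± 148 (SD over 4 libraries). Their log2 fold changes were 0.01 (SE 0.35) and 0.00 (SE 0.31). Dhcr7, which performs a late reduction on the way to cholesterol, was at 0.18 (SE 0.48), with its lowest value, 171, in WT library 2. Sqle, the squalene epoxidase and a rate-limiting step, had KO values of 1212, 1237, 204 and 589 against 507 to 714 in WT. KO libraries 1 and 2 were above all WT libraries and KO library 3 below all of them, with a log2 fold change of 0.11 (SE 0.47). Leaving out KO library 3 gave 0.67, and leaving out KO library 2 gave -0.20.

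Hsd17b7, the 3-keto sterol reductase, showed the reverse pattern of spread. Its KO values were 512, 667, 578 and 658, and its WT values were 812, 592, 273 and 145. The KO libraries lay close together and inside the WT range, and WT libraries 3 and 4 were the lowest of all 8 (log2 fold change 0.69 with an SE of 0.49, adjusted p = 0.783 by limma). Fdft1, the squalene synthase at the branch to sterols, had KO values of 4.05, 0, 117 and 88.1 and WT values of 175, 66.7, 87.8 and 175. KO libraries 1 and 2 were under 1 fragment and KO libraries 3 and 4 lay inside the WT range (log2 fold change -2.94 with an SE of 1.78, adjusted p = 0.770 by limma). Fdft1 shares 774 exon bases with Ctsb on the opposite strand, a far more abundant gene with a mean of 14821, and strand use in counting was not stated. Lss, the cyclase that makes lanosterol, had a log2 fold change of -1.56 (SE 1.31) that was 0.12 without KO library 2, where it was at 1.10. Tm7sf2, a sterol C14 reductase, was at -1.12 (SE 2.005), and it shares 532 exon bases with Vps51 on the same strand. The X-linked enzymes Nsdhl, which removes the C4 carboxyl group, and Ebp, the sterol isomerase, were at 1.93 (SE 1.62) and 0.90 (SE 1.07). For Nsdhl WT libraries 1 and 2 were at 2.79 and 5.68 and the other 6 libraries at 19.9 to 235.

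**Figure D4:**
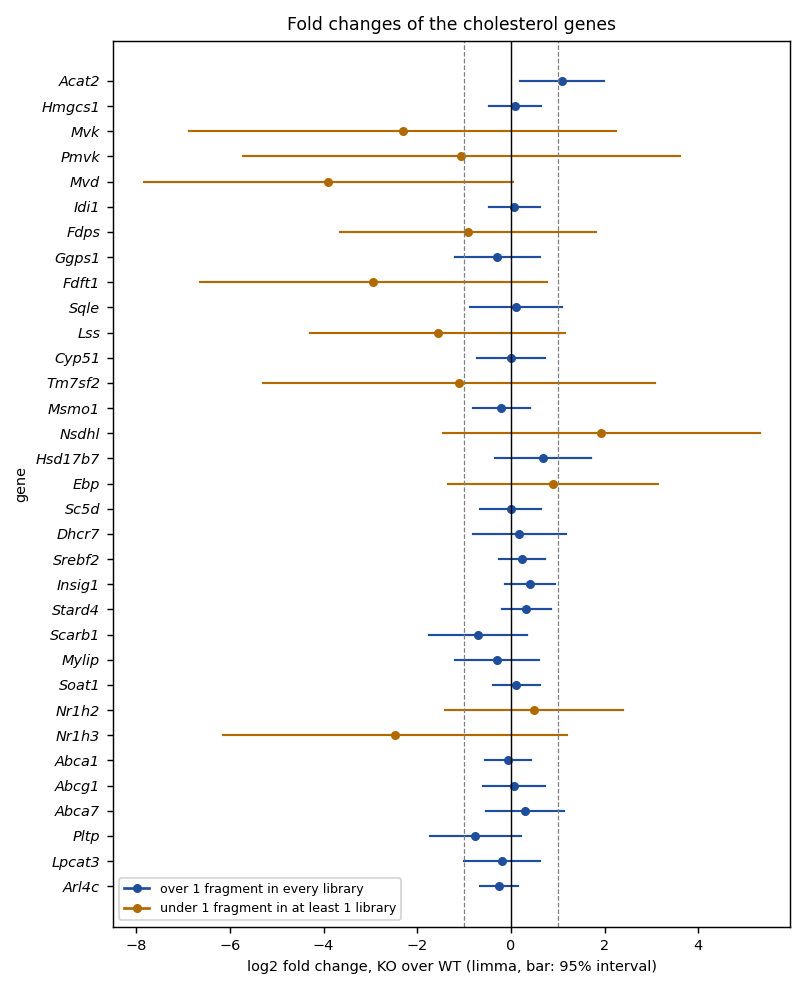
Each row gives a gene's log2 fold change of KO over WT from limma (point) with its 95% interval (bar), in blue for the 22 genes above 1 fragment in every library and in brown for the other 11; dashed lines mark 2-fold either way. Acat2 is the only gene whose interval leaves out 0, and no gene passed over all 16120 genes tested.

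The 3 genes of SREBP control and sterol transport were all positive, by small amounts that did not pass. Insig1, which retains the SREBP complex in the endoplasmic reticulum and is itself an SREBP target (ENSMUSG00000045294, chromosome 5, 28276361 to 28283660), had KO values of 2819, 2914, 1807 and 1992 and WT values of 2242, 1402, 1462 and 2037. KO libraries 1 and 2 were above every WT library, and KO libraries 3 and 4 lay within the WT range. The log2 fold change was 0.41 (SE 0.25, 95% interval -0.12 to 0.95, limma adjusted p = 0.770). Stard4, a soluble carrier that moves sterol between membranes, had KO values of 2154, 1680, 1403 and 1615 and WT values of 1299, 1157, 1450.1 and 1518. KO library 3 was the only KO library below any WT value, and without it the groups did not overlap (log2 fold change 0.33, SE 0.25, or 0.42 with that library left out). Srebf2, which encodes SREBP2, had KO values of 1887, 2001, 2435 and 1803 and WT values of 1806.5, 1826, 1828 and 1417. The order of the libraries differed from that of Insig1, with KO library 3 the highest (log2 fold change 0.24, SE 0.23). The group median was 0.33, and it ran from 0.27 to 0.42 when a library was left out. All 3 intervals lay within 2-fold.

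Uptake and esterification genes were measured by 3 members, of which 1 was positive and 2 negative (median -0.30). That median was 0.02 without KO library 2 and -0.65 without WT library 2. Scarb1, the HDL receptor that takes up cholesterol ester, had KO values of 474, 230.1, 153 and 343 and WT values of 341, 413, 645 and 447. KO libraries 2 and 3 were below every WT library, while KO library 1 was above 3 of them (log2 fold change -0.70 with an SE of 0.50, adjusted p = 0.783 by limma). Mylip, an LXR target and ubiquitin ligase that sends lipoprotein receptors for breakdown, had KO values of 1286, 315, 1204 and 921 and WT values of 1410.2, 495, 990 and 1507.5. Its lowest value in each group was in library 2 (log2 fold change -0.30, SE 0.43), and the fold change was 0.16 without KO library 2. Soat1, which esterifies cholesterol for storage (ENSMUSG00000026600, chromosome 1, 156252095 to 156301901), had KO values of 15554, 13447, 6218.5 and 10971, and WT values of 12090, 8979, 9793 and 9722. KO libraries 1 and 2 were the highest of all 8 and KO library 3 the lowest. The log2 fold change was 0.12 (SE 0.24, 95% interval -0.39 to 0.62). Leaving out KO library 3 gave 0.39, and leaving out KO library 1 gave -0.05.

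The LXR and efflux genes included the most abundant member, and none of the 8 had an unadjusted p under 0.05. Abca1, the pump that loads cholesterol onto lipid-poor apolipoprotein and a classical LXR target (ENSMUSG00000015243, chromosome 4, 53030787 to 53159895), had KO values of 20364, 18754, 10062 and 20121 and WT values of 19527, 15287, 14087 and 21896. KO library 3 was the lowest of all 8, and the other 7 libraries overlapped (log2 fold change -0.06, SE 0.24, 95% interval -0.56 to 0.43). Abcg1, which exports cholesterol to HDL, was at 1357 ± 482 in KO and 1284 ± 368 in WT (log2 fold change 0.07, SE 0.32). Abca7, a related lipid transporter, was at 0.30 (SE 0.40), and Lpcat3, the LXR-induced acyltransferase that places polyunsaturated chains into phospholipids, was at -0.19 (SE 0.39). Arl4c, a small GTPase induced by LXR that aids transport of cholesterol to Abca1, had KO values of 4528, 4997, 5763 and 4710 and WT values of 6781, 5481, 5360.1 and 6357. KO libraries 1, 2 and 4 were below every WT library, and KO library 3 lay within the WT range (log2 fold change -0.26 with an SE of 0.19, adjusted p = 0.786 by limma). Pltp, the phospholipid transfer protein, had KO values of 938, 201, 303 and 371 and WT values of 690, 443, 687 and 837. KO libraries 2 to 4 were below every WT library and KO library 1 was above all of them (log2 fold change -0.76 with an SE of 0.46, adjusted p = 0.770 by limma). Without KO library 1 the log2 fold change of Pltp was -1.19 (limma adjusted p = 0.442). Pltp shares 495 exon bases with Ctsa on the opposite strand.

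The receptors themselves were near the floor. Nr1h3, which encodes LXR alpha (ENSMUSG00000002108, chromosome 2, 91014406 to 91033179), had KO values of 44.3, 0, 20.8 and 60.0 and WT values of 134, 70.0, 82.9 and 70.2. All KO values were below all WT values, but KO libraries 1 to 3 were under their value of 1 fragment, and the gene rests on 11.6 fragments in all (log2 fold change -2.47 with an SE of 1.76, adjusted p = 0.783 by limma). Nr1h2, which encodes LXR beta, had a log2 fold change of 0.49 (SE 0.91), with its lowest values, 49.5 and 31.2, in library 2 of each group. Of the 8 LXR and efflux genes 3 were positive and 5 negative (median -0.13), and the 6 well-measured ones also had a median of -0.13, next to -0.12 over all tested genes. Macrophages and monocytes express many of these genes too. Across the 15 macrophage markers the median deviation from the 8-library mean was 0.12, -0.40, -0.77 and 0.15 in KO libraries 1 to 4 and 0.62, 0.12, 0.30 and -0.14 in WT libraries 1 to 4. For the 6 well-measured LXR and efflux genes the same measure was -0.01, -0.07, -0.03 and 0.01 in KO and 0.30, -0.16, -0.11 and 0.21 in WT. Both lists had their highest value in WT library 1, and the part of cell content in the values of these genes was not tested.

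**Figure D5:**
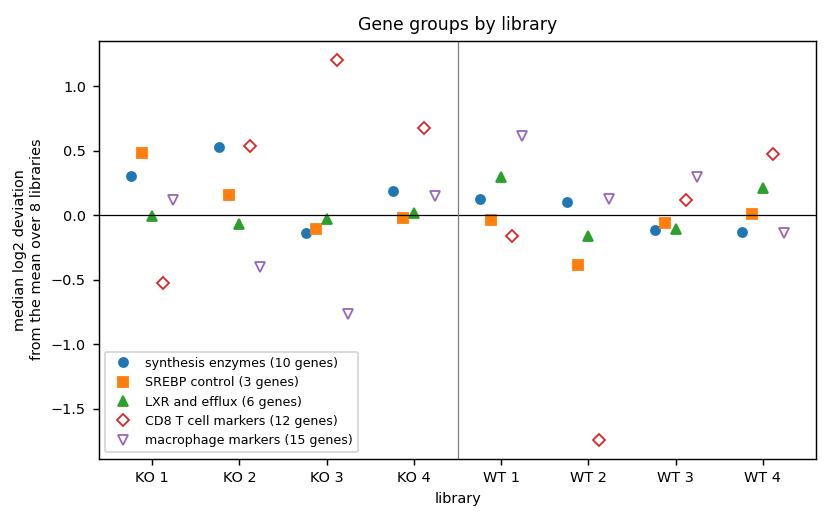
For each library the points give the median over a list of genes of log2(value + 1) minus the gene's mean over 8 libraries, for 3 groups of cholesterol genes (filled) and for CD8 T cell and macrophage markers (open). The cholesterol groups stay between -0.38 and 0.53, and CD8 T cell markers run from -1.74 in WT library 2 to 1.204 in KO library 3. The cholesterol groups hold only genes above 1 fragment in every library. The marker lists were not filtered in this way, so the spreads are not directly comparable.

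The members varied more among KO than among WT libraries. The SD of log2(value + 1) was larger in KO for 26 of 33 members (78.8%), against 63.9% of all tested genes, and for 19 of the 22 well-measured ones. KO library 3 was the lowest of all 8 libraries in 7 of these 22, namely Hmgcs1, Idi1, Sqle, Sc5d, Scarb1, Soat1 and Abca1, and the highest in 2, Srebf2 and Abca7. KO library 1 was the highest in 6 and KO library 2 in 5. WT library 2 was the lowest in 5, namely Acat2, Dhcr7, Insig1, Stard4 and Abcg1. KO library 3 also had the highest CD8 T cell marker median of the 8 (1.204) and the lowest macrophage median (-0.77), and WT library 2 had the lowest CD8 T cell median (-1.74). Whether cell content has a part in the values of KO library 3 and WT library 2 was not tested. For the 10 well-measured synthesis enzymes the median deviation was 0.30, 0.53, -0.14 and 0.19 in KO libraries 1 to 4 and 0.12, 0.10, -0.12 and -0.13 in WT libraries 1 to 4, so that KO libraries 1, 2 and 4 were above every WT library and KO library 3 below all of them. For the 3 genes of SREBP control and sterol transport it was 0.48, 0.15, -0.11 and -0.02 in KO and -0.04, -0.38, -0.06 and 0.01 in WT.

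The wider pathway was read from lists that hold no member. Of 19 tested genes for sterol synthesis and SREBP control, 0 passed in either direction by limma, 11 were positive and 8 negative (median 0.11), and 3 had an unadjusted p under 0.05, of which 2 are described. Over all tested genes 6.7% were under that p and 4.11% had groups that do not overlap, so 3 of 19 is a larger share than the background and 1 of 33 members a smaller one, both from small counts. Rnf145, a sterol-regulated ubiquitin ligase of the endoplasmic reticulum, had KO values of 2454, 6068, 4726 and 3794 and WT values of 2939, 2321, 2382 and 2885 (log2 fold change 0.63 with an SE of 0.25, adjusted p = 0.679 by limma). KO libraries 2 to 4 were above every WT library. Rnf139, another ligase of that membrane, had KO values of 1071, 1194.5, 1120 and 638 and WT values of 1480.0, 1340, 1345 and 1847, with no overlap (log2 fold change -0.61 with an SE of 0.28, adjusted p = 0.735 by limma). The most abundant gene of that list, Acly, which supplies cytosolic acetyl-CoA, was at 0.12 (SE 0.22).

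Of 25 tested genes for uptake, trafficking, storage and export, 0 passed in either direction by limma, 10 were positive and 15 negative (median -0.08), and 3 had an unadjusted p under 0.05 (6.7% over all tested genes), each with a negative fold change. Smpdl3a, a phosphodiesterase, had KO values of 918, 1029, 1053 and 1100.4 and WT values of 1848, 2747, 1276 and 1795. The groups did not overlap, and the KO libraries lay close together (log2 fold change -0.85 with an SE of 0.27, adjusted p = 0.448 by limma). Vldlr, a receptor for triglyceride-rich lipoproteins, had KO values of 503, 363, 320 and 413 and WT values of 513, 1978.5, 992 and 689 (log2 fold change -1.21 with an SE of 0.42, adjusted p = 0.535 by limma). Its groups did not overlap either, as in 4.11% of all tested genes, though KO library 1 and WT library 1 were close. Ch25h, which makes an oxysterol, had KO values of 1465, 406, 336 and 684 and WT values of 1531, 1646, 1458 and 744, and these overlapped (log2 fold change -1.08 with an SE of 0.41, adjusted p = 0.657 by limma). Lrp1, the most abundant gene of the list and a large endocytic receptor, was at -0.31 (SE 0.19). Among 13 users of mevalonate products, such as prenyltransferases, 0 passed, 0 had an unadjusted p under 0.05, and 6 were positive and 7 negative (median -0.01), with Nus1, a subunit of the dolichol-making enzyme, at 0.08 (SE 0.23) as the most abundant.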

How the data were processed

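Each deposited value is a normalized count, taken here as a signal: the authors scaled gene counts with DESeq2, going by the name of their table. Per the submitters' processing notes, the tools were STAR 2.7.8a, DESeq2 and Partek and the build was mm39, with no role or order given, and strand use and annotation are not given in the sources used here. Many values were fractions of a read, so no model for counts was applied. Per the labels' protocols, ribosomal RNA was depleted. Small nuclear and nucleolar RNAs took 27.6% to 35.2% of each library's sum.

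No scaling was added, and tests used log2(value + 1). KO was compared with WT by limma (version 3.58.1, under R 4.3.3), with a trended eBayes after lmFit, over the 16120 genes whose mean reached 10. The test was two-sided, with Benjamini-Hochberg adjustment over all of them and a threshold of 0.05. The fit was also run on simulated data with normal noise and with effects added in abundant genes only. That setting does not cover members with few fragments, and no conclusion is drawn from it here. Intervals are 95% intervals of that fit. The 8 libraries are biological replicates by the design text, 4 per group. Python 3.11.15, scipy 1.17.1 and matplotlib 3.10.9 were used for counts, the exact permutation test and figures.

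Depth in reads was the sum of a library, small RNAs included, divided by its smallest common step. The number of cDNA fragments, with small RNAs left out, was estimated from the share of moderately expressed genes (mean of 20 to 500 elsewhere) that a library missed. A gene was missed with under 3 reads, and losses were taken as Poisson. That share was 9.1% to 44.4%. Reads copied from 1 fragment are not independent, so single libraries have no counting intervals here. Positions are those of the authors' table. Exon lengths came from GENCODE M21 (GRCm38), in which 19544 of 19673 identifiers and all 33 members were found. Promoter windows came from RefSeq on GRCm38.p6, and those of Abcg1, Fdft1, Fdps, Scarb1, Sqle and Stard4 were not used here.

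The members, the pathway and marker lists and the naming rule were chosen with earlier results of these data known. The rule named every member, with values in all libraries for members with an unadjusted p under 0.05, members whose groups do not overlap and, in each role group, the 2 with the smallest p and the most abundant, and the other pathway genes with an unadjusted p under 0.05 or the highest mean of their list. Values of Sqle and Srebf2 in all libraries were added after they were seen. Those of Arl4c are also given in all libraries, outside the rule. Some genes of the lists are not reported here. Alternatives covered the pseudocount, the minimum mean, quantile and upper-quartile scaling, scaling without small RNAs, a replicate block, sample weights, robust hyperparameters and each library left out in turn.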

Additional observations from a re-analysis of the deposited data

Results flagged for a closer look

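In 5 of the 66 groups of 4 libraries tested, 2 for each member, the highest or lowest library stood apart from the other 3, with a gap over range past the 95% limit of Dixon's test. Chance flags about 1 in 20 groups. Hmgcs1 was at 4353 in WT library 2, against 3514 to 3595 in the other WT libraries. Mvd was at 88.3 in KO library 3, against 0 to 8.68 in the other KO libraries. Srebf2 was at 1417 in WT library 4, against 1806.5 to 1828 in the others. Abca1 was at 10062 in KO library 3, against 18754 to 20364. Abcg1 was at 736 in WT library 2, against 1424 to 1531.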

How the results depend on the processing

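No cholesterol gene passed over all genes under any alternative, and the lowest adjusted p of a member in any of them was 0.397, with sample weights. The count of all called genes was 63 with a pseudocount of 10, 15 with a minimum mean of 50, 0 with a replicate block and 112 with sample weights, and it ran from 7 to 70 when a library was left out. With a minimum mean of 50, 30 members were tested. The number of members with an unadjusted p under 0.05 was 2 (Acat2 and Mvd) with a pseudocount of 10, a minimum mean of 50, quantile scaling, the replicate block or robust hyperparameters, and 3 (Mvd, Pltp and Hsd17b7) with sample weights. It ran from 0 (without KO library 2 or WT library 2) to 2 when a library was left out. The number of members whose groups do not overlap ran from 3 to 5, with Stard4 and Arl4c added without KO library 3. The log2 fold change of Mtdh was -1.23 with a minimum mean of 50 (limma adjusted p = 0.0945) and with the replicate block (adjusted p = 0.0627), and it ran from -1.38 to -1.04 when a library was left out, where its call ended without KO library 2, 3 or 4 or WT library 1 or 2. The median of the mevalonate arm was 0.0275 with quantile scaling, -0.39 with a pseudocount of 10, -0.23 with sample weights and -0.11 with a minimum mean of 50. When a library was left out, it ran from -1.01 to -0.11, that of the sterol arm from -0.0644 to 0.19, that of uptake and esterification from -0.65 to 0.0167, and that of LXR and efflux from -0.23 to -0.0501. The cause of these shifts was not tested.

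No label used here says that a replicate number pairs the libraries, so the block is given only here. Deviations of same-numbered libraries correlated at 0.02, 0.05, 0.08 and 0.04. Noise in genes with few fragments also lowers such correlations, so they cannot decide whether libraries were paired. Over the members, 552 of 591 alternatives kept the direction and 39 reversed it, in 18 members. Reversed values were 0.0428 for Pmvk, 0.31 for Fdps, -0.0063 for Cyp51 and 0.46 for Tm7sf2 with quantile scaling. For Cyp51 they were also -0.0086 with upper-quartile scaling and -0.0424 with scaling without small RNAs. With sample weights they were -0.10 for Sqle, 0.76 for Tm7sf2, 0.13 for Sc5d, -0.25 for Dhcr7 and 0.043 for Abca1. When a library was left out, the fold change ran from -0.11 to 0.40 for Hmgcs1, -2.53 to 0.067 for Pmvk, -0.0728 to 0.19 for Idi1, -1.52 to 0.62 for Fdps, -0.56 to 0.28 for Ggps1, -0.20 to 0.67 for Sqle, -2.21 to 0.12 for Lss, -0.18 to 0.24 for Cyp51, -2.16 to 0.23 for Tm7sf2, -0.0791 to 1.495 for Ebp, -0.11 to 0.14 for Sc5d, -0.20 to 0.39 for Dhcr7, -0.65 to 0.16 for Mylip, -0.0534 to 0.39 for Soat1, -0.21 to 1.14 for Nr1h2, -0.17 to 0.18 for Abca1, -0.18 to 0.25 for Abcg1 and -0.35 to 0.0366 for Lpcat3. Precision is limited by the 4 libraries per group and by fragments, most of all for the 11 members with at most 44.4 fragments.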
